A study of Mus musculus with 12 samples.

Results

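The genes described here are 7 that lie downstream of interleukin-2 signalling in T cells: the feedback inhibitor genes Cish, Socs1, Socs2 and Socs3, the kinase genes Pim1 and Pim2, and the cytokine gene Lif. They were chosen by name, with earlier results of these data known. All 7 were among the 12885 gene symbols of the deposited expression table and among the 12726 genes tested. Their levels were set beside those of Il2, the gene for interleukin-2. RNA was sequenced from naive CD8 T cells sorted from the spleens of C57Bl/6 mice 6 weeks old, labelled female, as cells high in CD62L and low in or lacking CD44. The mice were homozygous for the Ikaros-Zn4 mutation (Zn4) or wild type (WT), and cells of both genotypes were taken at 0 h, directly after sorting, or at 12 h and 24 h of stimulation on plates coated with antibodies to CD3 and CD28. Each of these 6 groups held 2 libraries, 12 in all. The labels give neither a further description of the allele nor the animal behind each replicate, so p-values measure the spread between these libraries only.

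Interleukin-2 is made by activated T cells and acts back on them. Its receptor activates the kinases JAK1 and JAK3, which phosphorylate STAT5, and STAT5 enters the nucleus and turns on target genes. Among these targets are genes of the CIS and SOCS family, whose proteins bind the receptor or its kinases and damp the signal. PIM kinases are also targets of this pathway; they have no known need for activation by another kinase, so their amount is set largely by transcription and turnover, and they favour growth and survival. LIF belongs to the interleukin-6 family, signals through a receptor that contains gp130 (Il6st), and is made by activated T cells. Ikaros is a zinc finger DNA-binding protein of lymphocytes that is known to repress Il2 in T cells.

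The start regions of 4 of these genes carried short stretches that the 2 kinds of factor are known to bind, and are printed to show where. The letters searched were TTCNNNGAA, the palindromic core bound by STAT proteins, which reads the same on both strands, and TGGGAA, the core bound by Ikaros, searched on both strands (TTCCCA on the other). Promoter windows of 300 bases, 250 before and 50 after an annotated start, came from RefSeq on GRCm38.p6 and were matched for 6 of the 7 genes (7 windows, since Pim1 has 2). Of 32817 windows of this length over all genes, 8.29% held TTCNNNGAA at least once and 0.457% at least 2 times, and 25.6% held TGGGAA. Capitals mark each match, and no matches overlapped. The Cish window (chr9:107296409-107296708, plus strand) held 2 matches to TTCNNNGAA, at bases 251 to 259 and 262 to 270, which is just after the RefSeq start of that window. The Socs3 window (chr11:117969317-117969616, minus strand) held 1, at bases 97 to 105. The windows of Cish and Socs3 lie wholly within the gene positions given below, which begin upstream of them. The Socs1 window (chr16:10785487-10785786, minus strand) held TGGGAA at bases 82 to 87, and the Lif window (chr11:4257318-4257617, plus strand) held it on the other strand, at bases 123 to 128. The windows of Pim1 and Pim2 held neither string. A match describes these letters and does not show binding.
Cish: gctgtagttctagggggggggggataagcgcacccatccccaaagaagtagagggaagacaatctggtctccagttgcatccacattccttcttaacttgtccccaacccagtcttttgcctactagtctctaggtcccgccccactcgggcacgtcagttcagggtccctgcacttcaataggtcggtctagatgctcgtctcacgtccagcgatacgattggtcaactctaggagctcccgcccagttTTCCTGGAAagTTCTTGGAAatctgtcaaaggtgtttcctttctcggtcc
Socs3: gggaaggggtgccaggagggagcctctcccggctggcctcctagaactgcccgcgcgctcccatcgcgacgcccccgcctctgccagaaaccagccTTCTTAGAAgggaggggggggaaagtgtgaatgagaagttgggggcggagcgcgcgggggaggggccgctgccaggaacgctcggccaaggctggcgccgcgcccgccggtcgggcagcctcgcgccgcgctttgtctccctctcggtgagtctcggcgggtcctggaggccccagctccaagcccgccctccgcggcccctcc
Socs1: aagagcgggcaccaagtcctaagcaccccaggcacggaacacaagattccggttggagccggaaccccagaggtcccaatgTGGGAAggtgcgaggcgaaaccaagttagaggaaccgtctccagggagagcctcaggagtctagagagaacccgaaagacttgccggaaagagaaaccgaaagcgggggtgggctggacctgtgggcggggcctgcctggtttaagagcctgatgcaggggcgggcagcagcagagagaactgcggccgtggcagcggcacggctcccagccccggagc
Lif: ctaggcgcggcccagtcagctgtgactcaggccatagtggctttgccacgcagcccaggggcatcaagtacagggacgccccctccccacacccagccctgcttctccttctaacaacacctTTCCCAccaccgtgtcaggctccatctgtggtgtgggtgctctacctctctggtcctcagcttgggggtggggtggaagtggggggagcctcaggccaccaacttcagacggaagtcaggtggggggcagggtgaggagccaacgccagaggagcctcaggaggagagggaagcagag

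Levels are given in RPKM, the number of reads for a library of set size and a transcript of set length, as deposited. Differences are on the log2(RPKM + 1) scale with the standard error of a limma model over all 12 libraries. A gene was called where its p-value, adjusted by the Benjamini-Hochberg method over all 12726 genes, was below 0.05. The libraries held 24263907 to 33389808 reads, and replicates correlated with each other at r = 0.980 to 0.995. Although every sample is labelled female, 4 Y-linked genes summed to 43.4 and 21.0 RPKM in the Zn4 libraries of 12 h and to 38.9 RPKM in WT 12 h replicate 1, against at most 0.0209 RPKM in the other 9 libraries, so the members' results at 12 h are also given with each of these libraries left out. Both Zn4 libraries of 12 h held such RNA, so leaving out 1 of them leaves the other. What goes with Y-linked RNA and what goes with time in Zn4, or with genotype at 12 h, cannot be told apart this way. All 7 CD8 T cell markers were detected, with a summed level of 1431 to 1669 RPKM in Zn4 against 2107 to 2190 RPKM in WT at 24 h. Of these 7, 4 were called lower in Zn4 at 12 h and 4 at 24 h, where 8.28% and 9.96% of all tested genes were called lower. Markers of other cells were low or missing: Cd79b was the only B cell marker of 6 in the table (0.298 to 6.62 RPKM), Itgam the only myeloid marker of 6 (0.00558 to 1.16 RPKM), 2 of 4 CD4 T cell markers summed to 0.261 to 2.35 RPKM, and no erythroid marker of 4 was listed. Cd79b was called lower in Zn4 at 12 h and at 24 h (1.56 to 1.73 against 6.53 to 6.62 RPKM in WT at 24 h). Itgam was called higher in Zn4 at rest (1.04 to 1.16 against 0.179 to 0.19 RPKM in WT), the only group in which it reached 1 RPKM. Testing required 1 RPKM in 2 or more libraries, which Itgam met through that group alone, so its call is given as a description. Of 5 natural killer markers, 3 that CD8 T cells also express were listed (Klrc1, Nkg7 and Klrd1), with a sum of 374 to 539 RPKM in Zn4 against 234 to 256 RPKM in WT at 24 h. Of these 3, 1 was called higher and 1 lower in Zn4 at 12 h and likewise at 24 h, so the sum does not give the direction of each. Of all tested genes, 4.85% were called higher at 12 h and 9.4% at 24 h. The part of these markers in the results was not tested. In bulk RNA, more cells that express a gene and more RNA per cell cannot be told apart.

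Zn4 cells held more RNA of most of these genes than WT cells, and which genes differed changed with time. At rest, 3 of the 7 genes were called higher in Zn4 (Cish, Socs1 and Socs3) and none lower, where 5.72% of all tested genes were called, 3.76% higher and 1.96% lower. At 12 h, 3 were called higher (Cish, Pim1 and Lif) and Pim2 lower, where 13.1% of all genes were called, 4.85% higher and 8.28% lower. At 24 h, 6 of 7 were called higher, all but Pim2, and none lower, where 19.4% of all genes were called, 9.4% higher and 9.96% lower. Socs2 reached the 1 RPKM filter only through the Zn4 libraries of 24 h, so its call there, and any comparison that ends in that group, draws on the values by which it came to be tested and is given as a description. Rescaling the libraries (median-ratio or quantile) changed no direction and no call of Zn4 against WT among the 7 genes.

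**Figure D1:**
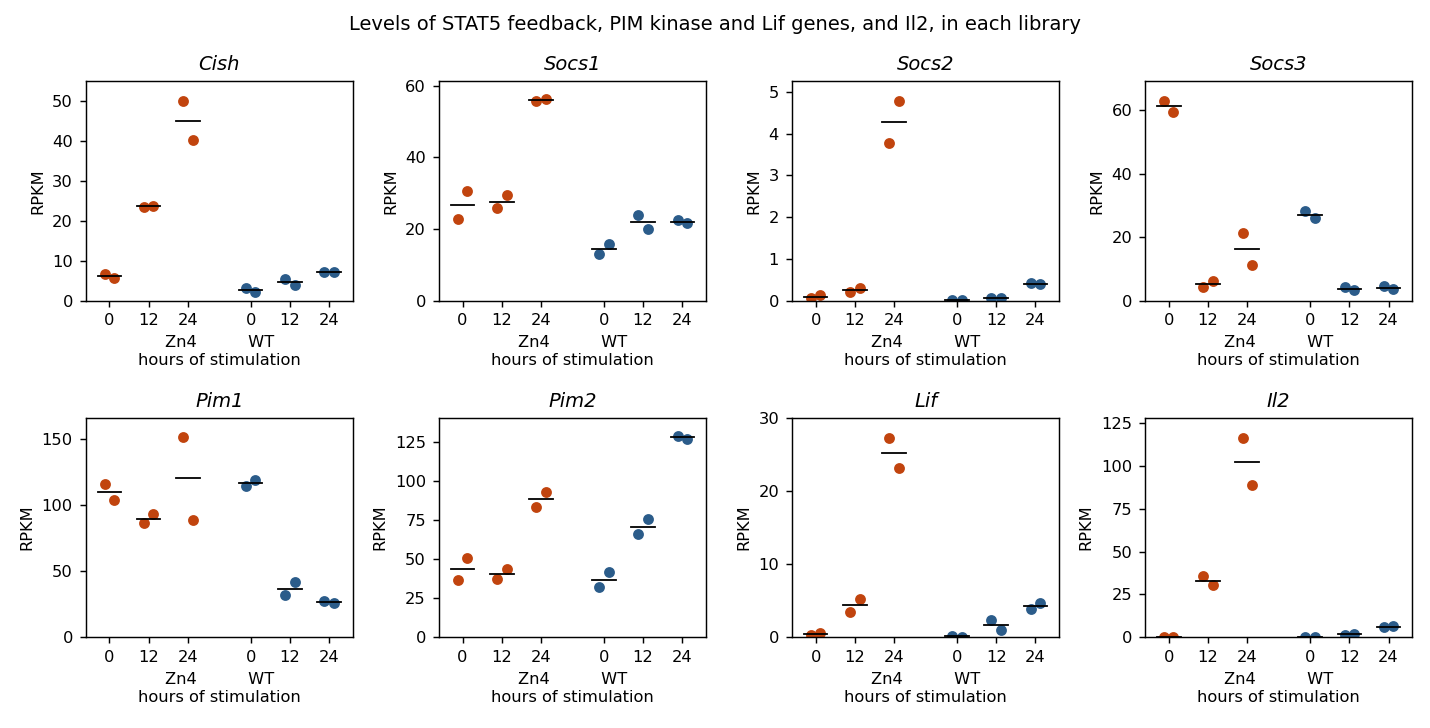
RPKM of each of the 7 genes and of Il2 in the 12 libraries, by genotype and hours of stimulation; points are libraries and lines are means of 2. Zn4 libraries of 24 h are the highest for Cish, Socs1, Socs2, Lif and Il2, whereas Socs3 is highest at 0 h and Pim2 in WT at 24 h.

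Cish encodes CIS, an SH2 and SOCS box protein that restrains signalling by the interleukin-2 receptor and, in CD8 T cells, by the T cell receptor. It lies at chr9:107296026-107302784 (GRCm38, plus strand). Cish stood at 6.70 and 5.64 RPKM at 0 h, 23.5 and 23.8 RPKM at 12 h and 49.9 and 40.2 RPKM at 24 h in Zn4 libraries. In WT libraries it stood at 3.10 and 2.12 RPKM at 0 h, 5.36 and 3.90 RPKM at 12 h and 7.15 and 7.07 RPKM at 24 h. Both Zn4 libraries lay above both WT libraries at every time, and resting Zn4 cells lay above WT cells stimulated for 12 h. Means of Zn4 were 2.36 times those of WT at 0 h (log2 difference 1.00 ± 0.17, SE, adjusted p = 0.00839), 5.11 times at 12 h (2.14 ± 0.17, adjusted p = 9.1e-05) and 6.34 times at 24 h (2.50 ± 0.17, adjusted p = 2.6e-05). Leaving out Zn4 0 h replicate 1 ended the call at rest (0.89, adjusted p = 0.0584), as did a fit of just the 4 libraries compared (adjusted p = 0.132). Without the libraries that held Y-linked RNA, each left out in turn, the difference at 12 h was 2.14 to 2.33 (adjusted p = 0.000521 to 0.00163). Exons of Cish overlap those of the antisense gene Gm17040, which was listed with 0 to 37 reads per library against 333 to 8204 for Cish; whether counting used the strand is not given in the sources used here.

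Socs1 encodes a direct inhibitor of JAK kinases that limits the response of T cells to cytokines and interferon (chr16:10782240-10785536, minus strand). Zn4 libraries held 22.8 and 30.7 RPKM at 0 h, 25.9 and 29.4 RPKM at 12 h and 55.7 and 56.2 RPKM at 24 h. WT libraries held 13.1 and 15.7 RPKM at 0 h, 24.0 and 20.1 RPKM at 12 h and 22.5 and 21.6 RPKM at 24 h. The genotypes lay apart at 0 h and 24 h and were close at 12 h, where the lower Zn4 library was just above the higher WT library. The log2 difference was 0.84 ± 0.15 at 0 h (1.86 times, adjusted p = 0.00967), 0.32 ± 0.15 at 12 h (not called, adjusted p = 0.216) and 1.31 ± 0.15 at 24 h (2.54 times, adjusted p = 0.000392). Leaving out Zn4 0 h replicate 2 (0.63, adjusted p = 0.0549) or WT 0 h replicate 1 (0.72, adjusted p = 0.055) ended the call at rest, and so did a fit of just the libraries compared (adjusted p = 0.171). Without each library that held Y-linked RNA the difference at 12 h was 0.23 to 0.44 and was not called (adjusted p = 0.205 to 0.582).

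Socs2, best known as a brake on growth hormone signalling, was the least abundant of the 4 inhibitors (chr10:95385362-95417180, minus strand). Its Zn4 libraries held 0.0641 and 0.128 RPKM at 0 h, 0.205 and 0.293 RPKM at 12 h and 3.77 and 4.77 RPKM at 24 h. Its WT libraries held 0.0164 and 0.0172 RPKM at 0 h (4 reads in each), 0.0605 and 0.0691 RPKM at 12 h and 0.424 and 0.392 RPKM at 24 h. Socs2 was thus at most 0.293 RPKM in the libraries of 0 h and 12 h, and above 1 RPKM only in Zn4 at 24 h. There its mean was 10.5 times that of WT (1.90 ± 0.12, adjusted p = 1.7e-05). At 12 h the difference of 0.23 ± 0.12 was not called (adjusted p = 0.256), but it was called with a pseudocount of 0.1 (1.07, adjusted p = 0.0447) and in a voom fit of the reads recovered from the RPKM values (1.88, adjusted p = 0.0104). It was 0.18 to 0.28 without each library that held Y-linked RNA (adjusted p = 0.389 to 0.595).

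Socs3 encodes the inhibitor that binds gp130 and damps interleukin-6 family signals, and it had a different course from the other inhibitors (chr11:117966079-117970047, minus strand). Zn4 libraries held 62.9 and 59.6 RPKM at 0 h, 4.39 and 6.17 RPKM at 12 h and 21.4 and 11.2 RPKM at 24 h. WT libraries held 28.2 and 26.0 RPKM at 0 h, 4.17 and 3.35 RPKM at 12 h and 4.49 and 3.50 RPKM at 24 h. Socs3 was highest at rest in both genotypes, and Zn4 lay above WT at 0 h and, with a wide spread between its libraries, at 24 h. Zn4 exceeded WT by 1.15 ± 0.25 at 0 h (2.26 times, adjusted p = 0.0289) and by 1.74 ± 0.25 at 24 h (4.08 times, adjusted p = 0.00157), while the difference at 12 h was 0.39 ± 0.25 (adjusted p = 0.391). Leaving out any of the 4 libraries of 0 h ended the call at rest (1.09 to 1.20, adjusted p = 0.077 to 0.117). Without each library that held Y-linked RNA the difference at 12 h was 0.19 to 0.60 (adjusted p = 0.365 to 0.827).

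Pim1 encodes a serine/threonine kinase that promotes survival and cell growth (chr17:29490753-29496112, plus strand). In Zn4 libraries it stood at 116 and 104 RPKM at 0 h, 86.5 and 92.9 RPKM at 12 h and 152 and 88.9 RPKM at 24 h. In WT libraries it stood at 114 and 119 RPKM at 0 h, 31.8 and 41.6 RPKM at 12 h and 27.6 and 25.7 RPKM at 24 h. The genotypes overlapped at rest and lay apart after stimulation, with every stimulated WT library below every Zn4 library. Zn4 minus WT was -0.09 ± 0.21 at 0 h (adjusted p = 0.901), 1.28 ± 0.21 at 12 h (2.45 times, adjusted p = 0.00406) and 2.08 ± 0.21 at 24 h (4.52 times, adjusted p = 0.000248). Without each library that held Y-linked RNA the difference at 12 h was 1.09 to 1.33 (adjusted p = 0.0295 to 0.0355). Its exons overlap those of an antisense gene, Gm26885, which was not analysed here.

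Pim2 encodes a related kinase that supports survival of T cells and went the other way (chrX:7878262-7883432, plus strand). Zn4 libraries held 36.4 and 50.8 RPKM at 0 h, 37.2 and 43.7 RPKM at 12 h and 83.4 and 93.1 RPKM at 24 h. WT libraries held 32.0 and 41.4 RPKM at 0 h, 65.9 and 75.6 RPKM at 12 h and 129 and 127 RPKM at 24 h. Both WT libraries lay above both Zn4 libraries at 12 h and at 24 h, and the genotypes overlapped at rest. Zn4 minus WT was 0.23 ± 0.17 at 0 h (adjusted p = 0.54), -0.79 ± 0.17 at 12 h (0.572 of the WT mean, adjusted p = 0.0144) and -0.53 ± 0.17 at 24 h (0.691 of the WT mean, adjusted p = 0.0575, not called). Leaving out Zn4 12 h replicate 1 (-0.68, adjusted p = 0.123) or WT 12 h replicate 2 (-0.69, adjusted p = 0.117) ended the call at 12 h, as did the Y-linked level as a covariate (-0.69, adjusted p = 0.0875). It was called without Zn4 12 h replicate 2 or WT 12 h replicate 1 (-0.90 and -0.89, adjusted p = 0.0354 and 0.0395). At 24 h, 8 of 22 alternative settings gave a call, in the same direction (-0.53, adjusted p = 0.00297 to 0.0403), among them the voom fit (adjusted p = 0.0364).

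Lif was below 1 RPKM at rest and highest in Zn4 cells at 24 h (chr11:4257557-4272514, plus strand). Zn4 libraries held 0.307 and 0.562 RPKM at 0 h, 3.50 and 5.20 RPKM at 12 h and 27.2 and 23.2 RPKM at 24 h. WT libraries held 0.153 and 0.0752 RPKM at 0 h (17 and 8 reads), 2.40 and 1.02 RPKM at 12 h and 3.81 and 4.63 RPKM at 24 h. The genotypes lay apart at every time, and Zn4 cells at 12 h overlapped WT cells at 24 h. Zn4 exceeded WT by 1.01 ± 0.24 at 12 h (2.54 times, adjusted p = 0.0243) and by 2.33 ± 0.24 at 24 h (5.97 times, adjusted p = 0.000269), while the difference at 0 h was 0.36 ± 0.24 (adjusted p = 0.503). The call at 12 h was lost on leaving out Zn4 12 h replicate 2 (0.78, adjusted p = 0.157) or WT 12 h replicate 2 (0.63, adjusted p = 0.162). Without Zn4 12 h replicate 1 or WT 12 h replicate 1, the others that held Y-linked RNA, it was 1.24 and 1.39 (adjusted p = 0.0419 and 0.0079). It was also lost in a fit of just the 4 libraries compared (adjusted p = 0.0677) and with the Y-linked level as a covariate (0.73, adjusted p = 0.122). Osm, which encodes the related cytokine oncostatin M and is the protein-coding gene nearest to Lif, 16531 bp away, was also called higher at 24 h, at 8.33 RPKM in Zn4 against 2.30 RPKM in WT (1.49 ± 0.20, adjusted p = 0.000942).

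**Figure D2:**
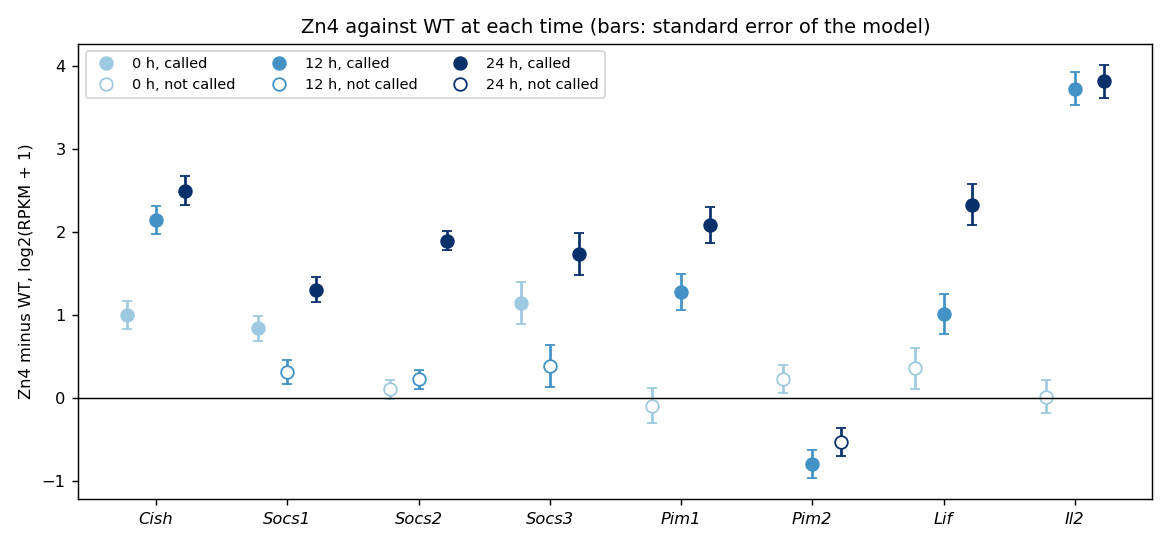
Zn4 minus WT on the log2(RPKM + 1) scale for each gene and for Il2 at 0 h, 12 h and 24 h, with standard errors of the model (2 libraries per group); filled points were called. Cish is called higher at all 3 times, Socs1 and Socs3 at 0 h and 24 h, Pim1, Lif and Il2 at 12 h and 24 h, and Socs2 at 24 h. Pim2 lies below 0 after stimulation.

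Levels of 6 of the 7 genes in Zn4 cells and of all 7 in WT cells changed between 0 h and 24 h, as did those of most genes measured. Pim1 in Zn4 was not called in any interval in the fit reported. Over 12 h it was called lower after median-ratio scaling (-0.57, adjusted p = 0.0352) and quantile normalization (-0.69, adjusted p = 0.023). A fit of just the libraries compared also called it lower over 12 h (-0.29, adjusted p = 0.0387). With the Y-linked level as a covariate its value over 12 h was 0.067 (adjusted p = 0.882). From 0 h to 12 h in Zn4 cells, Cish (1.79 ± 0.17) and Lif (1.89 ± 0.24) rose and Socs3 fell to 0.0862 of its resting level (-3.32 ± 0.25, adjusted p = 1.7e-06), where 73% of all genes changed, 43.5% up and 29.6% down. With each library that held Y-linked RNA left out, these were 1.78 to 1.79 for Cish, 1.65 to 2.12 for Lif and -3.53 to -3.12 for Socs3. Each of these fits kept a Zn4 library of 12 h with such RNA. Between 12 h and 24 h in Zn4, 6 of 7 rose, where 33.6% of all genes changed, 22.6% up and 11% down. Over this interval Socs2 rose by 2.07 ± 0.12, Lif by 2.31 ± 0.24, Socs3 by 1.41 ± 0.25, Pim2 by 1.11 ± 0.17, Socs1 by 1.00 ± 0.15 and Cish by 0.89 ± 0.17, while Pim1 differed by 0.37 ± 0.21 (adjusted p = 0.218). The value of Socs2 ends in the group through which it was tested. The value for Pim1 depended on its libraries of 24 h: without Zn4 24 h replicate 2 it rose by 0.75 (adjusted p = 0.00788), and without replicate 1 the difference was -0.01 (adjusted p = 0.965). With the Y-linked level as a covariate, the later rises of Socs3 (1.57, adjusted p = 0.0743) and Pim2 (0.89, adjusted p = 0.11) were not called. At 24 h against 0 h in Zn4, 5 genes were higher and Socs3 was lower, where 74.7% of all genes changed, 48.7% up and 26% down. Pim1 differed by 0.08 ± 0.21 (adjusted p = 0.739), or by 0.47 and called without Zn4 24 h replicate 2 (adjusted p = 0.0231). The median of all tested genes lay 0.19 to 0.20 higher at 12 h and 0.31 higher at 24 h than at rest in both genotypes, and rises from 0 h are to be read against that.

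In WT cells Pim1 fell and Pim2 rose with stimulation. From 0 h to 12 h, Cish (0.64 ± 0.17), Socs1 (0.58 ± 0.15), Pim2 (0.94 ± 0.17) and Lif (1.24 ± 0.24) rose, while Pim1 fell to 0.315 of its resting level (-1.65 ± 0.21, adjusted p = 7.6e-05) and Socs3 to 0.139 (-2.57 ± 0.25, adjusted p = 1.2e-05), where 70.2% of all genes changed, 43.1% up and 27% down. From 12 h to 24 h, Cish (0.54 ± 0.17), Socs2 (0.40 ± 0.12), Pim2 (0.85 ± 0.17) and Lif (0.99 ± 0.24) rose, where 24% of all genes changed, 17% up and 6.94% down. Over 24 h all 7 changed, 5 higher and 2 lower, where 73.9% of all genes changed, 48.3% up and 25.6% down. Pim1 reached 0.229 of its resting level (-2.09 ± 0.21, adjusted p = 1.3e-05) while Pim2 reached 3.48 times its own (1.78 ± 0.17, adjusted p = 8.2e-06). The rise of Socs1 over 12 h and 24 h was not called after median-ratio scaling (0.29, adjusted p = 0.106, and 0.20, adjusted p = 0.245) or quantile normalization (adjusted p = 0.119 and 0.177), and 4 settings ended the call of Cish at 12 h (adjusted p = 0.0557 to 0.0667). The later rise of Cish (adjusted p = 0.0467) ended in 8 of 22 settings (adjusted p = 0.0543 to 0.264), that of Socs2 in 6 (adjusted p = 0.0913 to 0.159), that of Lif in 3 (adjusted p = 0.0538 to 0.122) and that of Pim2 in 2 (adjusted p = 0.0592 and 0.0598). Without WT 12 h replicate 1, which held Y-linked RNA, the rises to 12 h were 0.45 for Cish (adjusted p = 0.0667), 0.46 for Socs1 (adjusted p = 0.0498), 1.03 for Pim2 and 0.86 for Lif, and the falls of Pim1 and Socs3 were -1.46 and -2.69.

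Whether the response itself differed between genotypes was tested over each interval as the genotype by time interaction. For Socs2, intervals that end at 24 h end in the group through which it passed the filter, so its values are a description. Over 0 h to 24 h, the change was higher in Zn4 than in WT for 4 genes and lower for none, where 8.24% of all genes were called, 3.88% higher and 4.35% lower. These were Pim1 by 2.17 ± 0.30 (adjusted p = 0.00417), Lif by 1.97 ± 0.34 (adjusted p = 0.0102), Socs2 by 1.79 ± 0.16 (adjusted p = 0.000591) and Cish by 1.50 ± 0.24 (adjusted p = 0.00719). Over 0 h to 12 h, the change was higher in Zn4 for Pim1 (1.37 ± 0.30, adjusted p = 0.0336) and Cish (1.14 ± 0.24, adjusted p = 0.0281), and lower for Pim2 (-1.03 ± 0.24, adjusted p = 0.0422), where 5.12% of all genes were called, 1.54% higher and 3.58% lower. Pim1 itself was not called in Zn4 over 12 h (-0.29 ± 0.21) or 24 h (0.08 ± 0.21) in the fit reported. Over 12 h in Zn4 it was called lower after median-ratio scaling (-0.57, adjusted p = 0.0352) or quantile normalization (-0.69, adjusted p = 0.023). In WT it fell (-1.65 ± 0.21 and -2.09 ± 0.21). Over 12 h to 24 h, Socs2 alone was called (1.67 ± 0.16, adjusted p = 0.00761), where 0.786% of all genes were called, 0.652% higher and 0.134% lower. The interactions of Lif over 24 h and of Socs2 in both intervals depend on the scale: none was called in the voom fit (0.67, adjusted p = 0.708 for Lif, and 1.07, adjusted p = 0.376 for Socs2 over 24 h, and 1.49, adjusted p = 0.227 for Socs2 from 12 h). All 3 calls of the 0 h to 12 h interval were lost in 11 or 12 of 22 settings, mostly when a library was left out (adjusted p = 0.0505 to 0.109 for Cish, 0.0504 to 0.108 for Pim1 and 0.0506 to 0.168 for Pim2). For Socs1 and Socs3 no interaction was called, with values of 0.47 ± 0.21 (adjusted p = 0.212) and 0.59 ± 0.36 (adjusted p = 0.364) over 24 h; without Zn4 24 h replicate 2, Socs3 was called (1.02, adjusted p = 0.0378).

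Il2 itself was at the limit of detection at rest, with 1 and 2 reads in Zn4 libraries and 2 and 0 reads in WT libraries. After stimulation it stood at 35.9 and 30.3 RPKM at 12 h and 116 and 88.6 RPKM at 24 h in Zn4 cells. WT cells held 1.08 and 2.20 RPKM at 12 h and 6.05 and 6.54 RPKM at 24 h. Every stimulated Zn4 library thus lay above every WT library, with means 20.2 times as high at 12 h (3.72 ± 0.20, adjusted p = 1.3e-05) and 16.3 times as high at 24 h (3.81 ± 0.20, adjusted p = 8.8e-06). The gain of Il2 from rest was larger in Zn4 by 3.70 ± 0.28 over 12 h (adjusted p = 0.000209) and by 3.79 ± 0.28 over 24 h (adjusted p = 0.000178), calls that were lost in the voom fit (adjusted p = 0.162 and 0.165); at rest it rests on 0 to 2 reads per library. Without each library that held Y-linked RNA the difference of Il2 at 12 h was 3.41 to 3.84 (adjusted p = 6.9e-05 to 0.000367).

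Set beside Il2, the 7 genes fell into different patterns. Lif had the same order of group means as Il2: Zn4 at 24 h, Zn4 at 12 h, WT at 24 h, WT at 12 h, then both groups at rest, with overlap between Zn4 at 12 h and WT at 24 h. Cish had this order except that resting Zn4 cells stood above WT cells at 12 h, and each step in its order lay apart in both libraries. Socs2 had WT at 24 h above Zn4 at 12 h. Socs1 was highest in Zn4 at 24 h, and below that Zn4 at 12 h, Zn4 at 0 h, WT at 12 h and WT at 24 h overlapped with their neighbours. Socs3 ran from Zn4 at 0 h to WT at 0 h and only then to Zn4 at 24 h. For Pim1, Zn4 at 24 h, WT at 0 h and Zn4 at 0 h overlapped at the top, and for Pim2 the highest group was WT at 24 h, where Il2 was 6.30 ± 0.344 RPKM against 102 ± 19.5 RPKM in Zn4 at 24 h (SD, n = 2 each).

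At rest Cish, Socs1 and Socs3 were called higher in Zn4, while Il2 had at most 2 reads (0.0683 RPKM) in any resting library. Each of these calls was lost on leaving out at least 1 library of 0 h. Those of Cish and Socs1 were also lost in a fit of just the libraries compared. Across the 12 libraries, Pearson's r with Il2 on the log2(RPKM + 1) scale was 0.944 for Cish, 0.936 for Lif, 0.792 for Socs2, 0.782 for Socs1, 0.383 for Pim2, 0.095 for Pim1 and -0.394 for Socs3. In each gene's list of the 12725 other tested genes ordered by r, Il2 took place 33 for Cish, 62 for Lif, 275 for Socs1 and 312 for Socs2, and places 4601, 6066 and 6675 for Pim1, Pim2 and Socs3. These values describe 12 libraries that fall into 6 groups and share time and genotype, so they carry no test. Those of Socs2 also draw on Zn4 at 24 h, the group through which it came to be tested. Within the 4 stimulated groups, the library with more Il2 also had more Pim1 or Lif in 2 groups each, more Cish, Socs2, Socs3 or Pim2 in 1 group each, and more Socs1 in none.

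**Figure D3:**
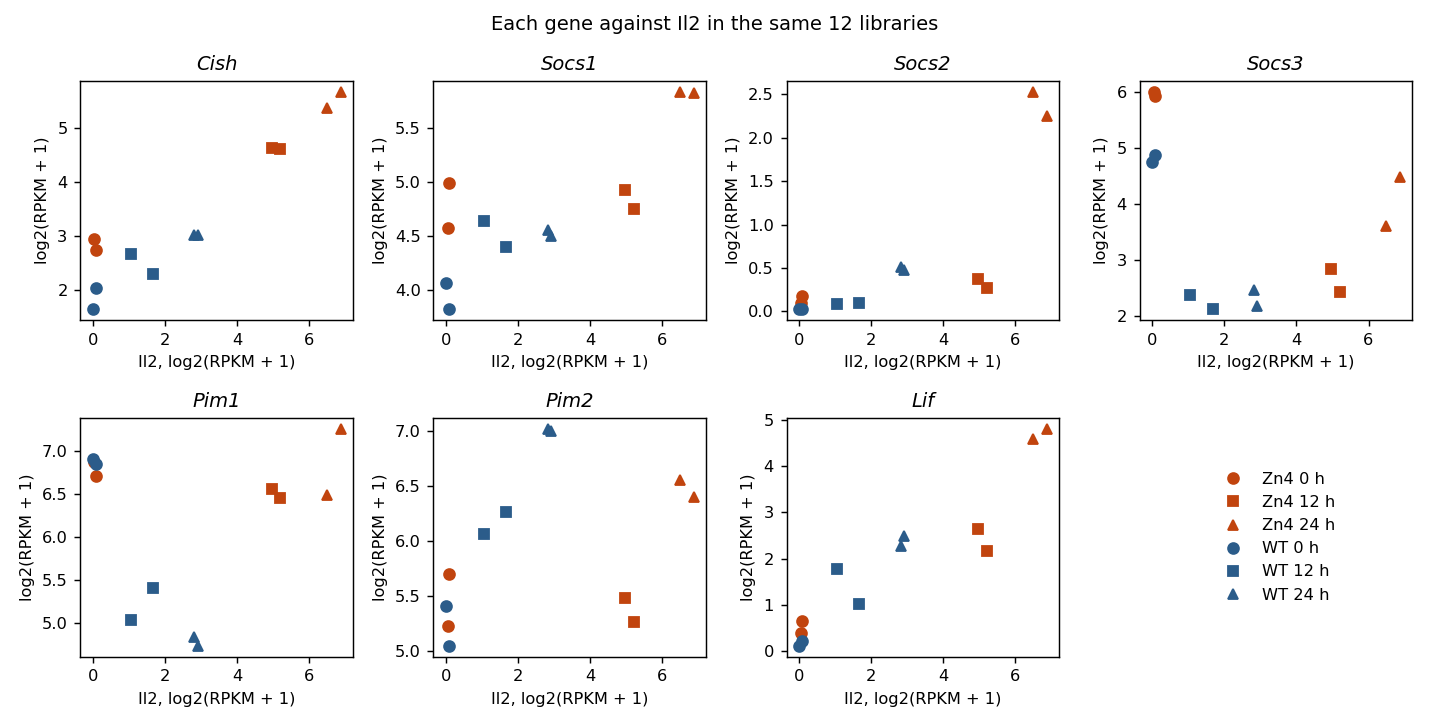
Each of the 7 genes (vertical axis) against Il2 (horizontal axis) in the same 12 libraries, both as log2(RPKM + 1); colour gives the genotype and shape the time. Cish and Lif climb with Il2 (r = 0.944 and 0.936), Socs3 is highest where Il2 is near 0, and Pim1 and Pim2 separate the genotypes at 12 h and 24 h in opposite directions.

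Genes whose levels ran like each member over the 12 libraries differed from gene to gene. Cish ran most like Axl (r = 0.984), a receptor tyrosine kinase gene with means of 55.5 RPKM in Zn4 against 4.50 RPKM in WT at 24 h, and closely like Mapkapk2 (0.973). Socs1 ran most like Dstn (0.943), Ifitm3 (0.938) and Ccdc88a (0.937), and Socs2 like Igfbp7, Gm9847 and Il1a (0.984, 0.984 and 0.983). Socs2, Gm9847, Il1a and Ccdc88a reached 1 RPKM only in Zn4 at 24 h, with means of at most 0.558 RPKM in other groups. Their values of r thus draw on the group through which they came to be tested and are given as a description. For Socs3 they were Emp1 (0.992), the immediate early gene Fosb (0.989) and Aim1 (0.981). Emp1 shared the high resting level, at 66.5 RPKM in Zn4 against 19.9 RPKM in WT at 0 h. Pim1 ran like the protease gene Furin (0.978), which stood at 28.0 RPKM in Zn4 against 8.99 RPKM in WT at 24 h, and like Rab6a (0.961) and Cd247 (0.957). Pim2 ran like Dync2h1 (0.972) and Prkaca (0.972), and Lif like Plcg2 (0.981), Osbpl3 (0.977) and Perp (0.973). Among the members themselves, Lif and Cish (0.895), Lif and Socs2 (0.894) and Cish and Socs1 (0.879) were the closest, whereas Pim1 and Pim2 ran against each other (-0.671).

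In the rest of the pathway, cytokine genes and several receptor and STAT genes were higher in Zn4 cells at 24 h. The pathway lists were chosen with earlier results of these data known, so their counts are descriptions. Of 9 cytokine genes that can activate STAT5, 3 were in the table, and all 3 were called higher at 12 h and at 24 h: Il2, Il3 and Csf2. Il3 passed the 1 RPKM filter only through the stimulated Zn4 libraries (at most 1.11 RPKM in WT, in 1 library), so its difference and its place in this count are a description. Il3 stood at 262 RPKM in Zn4 against 0.978 RPKM in WT at 24 h (7.05 ± 0.20, adjusted p = 3.8e-07), and Csf2, which encodes GM-CSF, at 70.3 RPKM against 1.26 RPKM (4.96 ± 0.28, adjusted p = 1.2e-05). Among 17 receptor chain, JAK and STAT genes, 7 were higher and 2 lower at 24 h, against 9.4% higher and 9.96% lower over all tested genes, with a median difference of 0.53 against -0.02. Stat5a stood at 60.1 RPKM in Zn4 against 22.4 RPKM in WT (1.34 ± 0.19, adjusted p = 0.00158), the interleukin-7 receptor gene Il7r at 8.12 against 2.76 RPKM (1.28 ± 0.27) and Stat4 at 32.9 against 15.2 RPKM (0.97 ± 0.28). At 12 h, 2 were higher, Il15ra (0.97 ± 0.18) and Stat5a (0.87 ± 0.19), and 3 lower, among them Jak3 (-0.55 ± 0.12), against 4.85% and 8.28% of all genes. At rest Jak3 was higher (0.80 ± 0.12, adjusted p = 0.005) and Stat5b lower (-0.63 ± 0.12, adjusted p = 0.0165). Both calls were lost in a fit of just the libraries compared (adjusted p = 0.0795 and 0.157). Single libraries decided some of these calls. The call of Il7r was lost without Zn4 24 h replicate 1 or WT 24 h replicate 2 (adjusted p = 0.0853 and 0.0819), and that of Stat4 on leaving out any 1 of 5 libraries (adjusted p = 0.059 to 0.177). Stat5a at 12 h was not called on leaving out any 1 library of 12 h (adjusted p = 0.0585 to 0.109). Neither Jak3 nor Il15ra was called at 12 h without Zn4 12 h replicate 1 or WT 12 h replicate 2 (adjusted p = 0.15 and 0.144 for Jak3, and 0.0686 and 0.059 for Il15ra). Stat5b at rest was not called on leaving out any 1 of 3 libraries of 0 h (adjusted p = 0.0566 to 0.0994). Without Zn4 24 h replicate 1 the difference of Stat4 was 0.44.

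Other JAK-STAT brakes and partners of the SOCS box, 20 genes in all, were called lower about as often as all genes. Of the 20, 2 were lower at 12 h and 2 at 24 h, where 8.28% and 9.96% of all genes were. None was called higher at any time, where 4.85% and 9.4% of all genes were (median 0.10 at 24 h). The phosphatase gene Ptpn6, which encodes SHP-1, was lower at both times (-0.58 ± 0.12 and -0.57 ± 0.12), with Pias3 at 12 h (-0.80 ± 0.14) and Pias2 at 24 h (-0.41 ± 0.11). The calls of Ptpn6 were lost on leaving out any 1 library of 12 h at that time (adjusted p = 0.0538 to 0.0849) and any 1 of 3 libraries of 24 h at 24 h (adjusted p = 0.0584 to 0.0819), and that of Pias2 on leaving out any 1 of 6 libraries (adjusted p = 0.0506 to 0.172). Socs4, Socs5, Socs6 and Socs7, the other SOCS genes, were not called at 24 h. Of 15 other genes reported as STAT5 targets, 10 were higher and none lower at 24 h (median 0.84), against 9.4% and 9.96% of all genes, led by the granzyme gene Gzmb at 1198 RPKM in Zn4 against 111 RPKM in WT (3.35 ± 0.36, adjusted p = 0.000328), Eomes (3.10 ± 0.36) and the lymphotoxin gene Lta (2.19 ± 0.13). At 12 h 4 were higher and 1 lower, against 4.85% and 8.28% of all genes, with Eomes (2.03 ± 0.36), Gzmb (1.82 ± 0.36) and the survival gene Bcl2l1 (1.58 ± 0.10) in front, and at rest Eomes (1.77 ± 0.36) and Prdm1 (1.43 ± 0.20) were higher. Of these calls, Eomes and Prdm1 at rest were lost in a fit of just the libraries compared (adjusted p = 0.114 and 0.139). Eomes at rest was also lost without Zn4 0 h replicate 1 or WT 0 h replicate 2 (adjusted p = 0.111 and 0.0981), and Gzmb at 12 h without either Zn4 library of 12 h or WT 12 h replicate 2 (adjusted p = 0.0567 to 0.0698). Some of these genes have other known regulators, and Il7r and Il2ra also stand in the receptor list. Since the list of STAT5 targets was chosen with earlier results of these data known, its counts are a description.

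The third PIM gene, Pim3, followed Pim1 and not Pim2. It stood at 63.3 RPKM in Zn4 against 28.1 RPKM in WT at 24 h (1.15 ± 0.16, adjusted p = 0.00131) and was also called at 12 h (0.91 ± 0.16, adjusted p = 0.00553). Among 12 genes of the PIM family and its substrates, 3 were higher and 1 lower at 24 h (median 0.27), against 9.4% and 9.96% of all genes. Besides Pim3, the cell cycle inhibitor gene Cdkn1a (1.93 ± 0.34) and the translation repressor gene Eif4ebp1 (1.23 ± 0.11) were higher. At 12 h Cdkn1a (1.45 ± 0.34) joined Pim3, and at rest only Map3k5 was called (0.83 ± 0.10), a call lost in a fit of just the libraries compared (adjusted p = 0.0715). Cdkn1a at 12 h was not called on leaving out any 1 of the 3 libraries that held Y-linked RNA (0.95 to 1.50, adjusted p = 0.103 to 0.133). In the LIF family, 4 of 10 listed genes were in the table. Osm and Clcf1 (0.71 ± 0.22, adjusted p = 0.0474) were higher and Il6st, which encodes gp130, was lower (-0.58 ± 0.18, adjusted p = 0.0472) at 24 h, and none was called at 12 h or at rest. The calls of Clcf1 and Il6st were each lost in 10 of 22 settings, for example without Zn4 24 h replicate 1 (0.48, adjusted p = 0.307, and -0.50, adjusted p = 0.238).

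**Figure D4:**
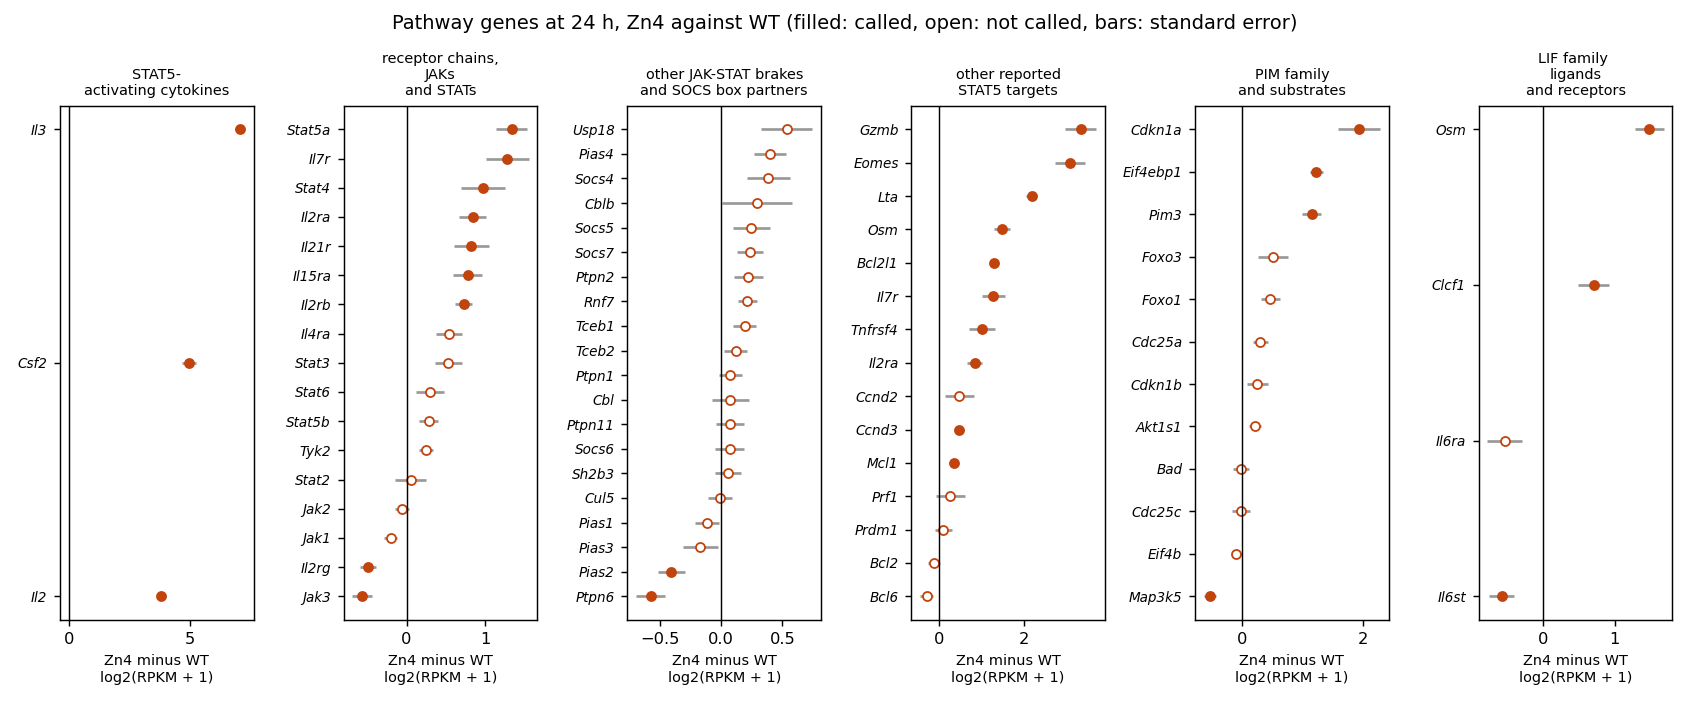
Zn4 minus WT at 24 h on the log2(RPKM + 1) scale for each tested gene of the 6 pathway lists, with standard errors of the model (2 libraries per group); filled points were called, and each panel has its own axis. All 3 cytokine genes lie far to the right (3.81 to 7.05), 10 of 15 STAT5 targets are called higher, and no gene among the 20 other brakes is. The lists were chosen with earlier results of these data known.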

How the data were processed

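The table holds RPKM values that the authors deposited for 12892 lines and 12885 symbols; where a symbol stood on 2 lines (7 symbols), the upper line was used. Reads were aligned with TopHat2 2.0.12 and counted with HTSeq 0.6.1 on mm10/GRCm38, per the submitters' processing notes; the libraries came from a stranded kit, per the labels' protocols. Every listed gene had a group mean of at least 1.0005 RPKM, so genes low in every group are not analysed here. Whole reads could be recovered for all 12885 genes (100%, tolerance 0.02 reads); 73.8% to 86.1% of a library's reads lay in listed genes, and no sample column was left unused.

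Values were analysed as log2(RPKM + 1), which damps changes near or below 1 RPKM. The 12726 genes that reached 1 RPKM in 2 or more libraries entered 1 linear model with a mean per group (R 4.3.3 with limma 3.58.1, variances moderated with an intensity trend, 6 residual degrees of freedom), checked on simulated data, with Benjamini-Hochberg adjustment within each of 12 comparisons. Alternatives were another pseudocount, filters, scaling, the libraries in the fit, replicate blocks, the Y-linked level as a covariate, voom on recovered reads and leaving out each library. Positions are from GENCODE M21 (GRCm38). Members and lists were chosen with earlier results of these data known. Named genes are the members and Il2, the 3 genes most like each, and the 3 called genes of largest difference per pathway list at each time; some genes are not reported here.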

Additional observations from a re-analysis of the deposited data

Results flagged for a closer look

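These results were set apart because the response to stimulation differed between genotypes, by a test of the difference itself (limma, 2 libraries per group). Cish gained more in Zn4 than in WT cells by 1.14 from 0 h to 12 h (adjusted p = 0.0281) and by 1.50 from 0 h to 24 h (adjusted p = 0.00719). Pim1, which fell in WT cells, differed by 1.37 (adjusted p = 0.0336) and 2.17 (adjusted p = 0.00417) over the same intervals. Pim2 gained less in Zn4 cells from 0 h to 12 h, by -1.03 (adjusted p = 0.0422), so the 2 kinase genes departed from WT in opposite directions. The calls of Cish, Pim1 and Pim2 over 0 h to 12 h were lost in 12, 11 and 12 of 22 settings. For Cish and Pim2 these included the Y-linked level as a covariate (adjusted p = 0.0831 and 0.129). Socs2 gained more in Zn4 cells by 1.67 from 12 h to 24 h (adjusted p = 0.00761) and by 1.79 from 0 h to 24 h (adjusted p = 0.000591), but both end in the Zn4 libraries of 24 h, through which alone Socs2 came to be tested, and neither was called in the voom fit (adjusted p = 0.227 and 0.376). Lif gained more by 1.97 from 0 h to 24 h (adjusted p = 0.0102), a call also lost in the voom fit (adjusted p = 0.708). All these values are on the log2(RPKM + 1) scale.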

How the results depend on the processing

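Across 22 alternative settings of 96 results for the 7 genes and Il2, 1915 values kept their direction and their side of the threshold, 91 lost a call, 29 gained one and 32 changed sign, all of the last kind without a call in the fit reported. Counts of members called moved by more than 1.5 times in these cases. In a fit of only the libraries compared, 1 in place of 3 was called at rest, and 1 in place of 3 differed in the 0 h to 12 h response. With the Y-linked level as a covariate, 2 in place of 4 were called at 12 h, 2 in place of 4 from 12 h to 24 h in WT and 1 in place of 3 in the 0 h to 12 h response. Quantile normalization gave 5 in place of 3 at 12 h in Zn4, 2 in place of 4 from 12 h to 24 h in WT and 1 in place of 3 in the 0 h to 12 h response. For the 12 h to 24 h response, where 1 was reported, a pseudocount of 0.1, a filter at 5 RPKM and voom each gave 0, and the replicate block at each time point gave 2; voom gave 2 in place of 4 for the 0 h to 24 h response. For 33 results on named pathway genes in Zn4 against WT, an alternative chosen after seeing the data, 655 values kept the call, 69 in 17 results lost it and 0 changed sign; the shared block ended that of Clcf1 (0.71, adjusted p = 0.051). The filter at 5 RPKM removes Socs2; the cause of the other moves was not tested.

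Leaving out each library gave 1 to 3 genes at rest, 2 to 4 at 12 h and 5 to 7 at 24 h for Zn4 against WT. In Zn4 cells it gave 3 to 3 at 12 h against 0 h, 5 to 6 at 24 h against 12 h and 5 to 6 at 24 h against 0 h, and in WT cells 5 to 6, 1 to 4 and 6 to 7. For the genotype difference in response it gave 0 to 2 (0 h to 12 h), 0 to 2 (12 h to 24 h) and 3 to 5 (0 h to 24 h).

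Sign changes with median-ratio scaling were Socs1 at 12 h against 0 h in Zn4 (-0.21), Pim1 at 24 h against 0 h in Zn4 (-0.31), and Socs1 (-0.091) and Socs3 (-0.010) at 24 h against 12 h in WT. With quantile normalization these were -0.29, -0.30, -0.043 and -0.11. With the Y-linked covariate, the 12 h against 0 h values in Zn4 were -0.13 for Socs1, 0.067 for Pim1 and 0.13 for Pim2, and the Il2 response from 12 h to 24 h was -0.15. That Il2 value was -0.34 with a pseudocount of 0.1 and -0.35 with voom, where the 0 h to 12 h responses of Socs2 (-0.42) and Lif (-0.40) also turned. Voom also ended the calls of the Il2 response over 12 h (adjusted p = 0.162) and 24 h (adjusted p = 0.165). Leaving out libraries turned Socs1 at 12 h in Zn4 (-0.15 to 0.27) and from 12 h to 24 h in WT (-0.12 to 0.13), Socs3 from 12 h to 24 h in WT (-0.074 to 0.21), Pim1 from 12 h (-0.013 to 0.75) and 0 h (-0.30 to 0.47) to 24 h in Zn4, Pim2 at rest (-0.0016 to 0.47) and at 12 h in Zn4 (-0.32 to 0.15), Il2 at rest (-0.026 to 0.069) and the Il2 response from 12 h to 24 h (-0.22 to 0.40).

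The labels give replicate numbers no shared source, so the libraries were taken as unpaired. Deviations of same-numbered Zn4 and WT libraries correlated at 0.61 at 0 h, 0.19 at 12 h and 0.04 at 24 h. Over all pairs of groups the lowest was -0.12, but pairs of different times do not bear on pairing within a time. The fit reported thus does not model what same-numbered libraries of 0 h share. For the 7 genes and Il2, neither the shared replicate block nor the block at each time point ended a call; they added 2 and 3, of which Pim2 was called lower at 24 h with both (adjusted p = 0.0124 and 0.00297). Over all genes, the block at each time point gave 1343 calls in place of 728 at rest, 2644 in place of 1671 at 12 h and 3794 in place of 2464 at 24 h, and 1319 in place of 651, 216 in place of 100 and 2029 in place of 1048 for the responses over 0 h to 12 h, 12 h to 24 h and 0 h to 24 h. The shared block gave 49 in place of 100 for the second. The Y-linked covariate gave 892 at 12 h, 847 in place of 4273 and 1511 in place of 3052 from 12 h to 24 h in Zn4 and WT, and 318 and 7 for the first 2 responses. A fit of only the libraries compared gave 120 at rest, 5213 from 12 h to 24 h in WT, and 11 and 552 for the last 2 responses. For the 12 h to 24 h response a pseudocount of 0.1 gave 0, quantile normalization 52 and voom 43. For a gene of 2 kb, 3 reads correspond to 0.0449 to 0.0618 RPKM, which limits Socs2, Lif and Il2 at rest.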
